A study of Mus musculus with 2 samples.

Results

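The Mir30 family of the mouse comprises 6 genes (Mir30a, Mir30b, Mir30c-1, Mir30c-2, Mir30d and Mir30e), chosen by their GENCODE symbols among the 1973 miRNA genes counted in the embryonic facial prominence. Both libraries came from strain B6NCrl at embryonic day 12.5 and belong to 1 group of healthy embryos, with no second condition. Replicate 1 pooled tissue of 120 embryos and replicate 2 of 88 embryos, of both sexes. Each value is therefore a mean over many embryos and over all cell types of the dissected buds. Fewer cells of a type and less RNA per cell cannot be told apart in such tissue.

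A miRNA is cut from a hairpin transcript, and either arm of the hairpin, 5p or 3p, can be loaded into an Argonaute protein. The loaded strand pairs with messenger RNAs mainly through its seed, bases 2 to 8 from its 5′ end, and lowers their translation and stability. Members of the miR-30 family share the seed of their 5p arm and differ in the bases behind it. The family is known from kidney development, from the repression of Snai1 in epithelial cells and from the repression of Runx2 and Smad1 in bone-forming cells. Messenger RNAs were not analysed here.

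The mature strands are shown because they define the family and because the bases that differ decide whether a read can be assigned to 1 gene. They come from RefSeq on GRCm38.p6, which held 4 of the 6 members, and Mir30b and Mir30d had no entry there. Capitals mark bases 2 to 8.
miR-30a-5p: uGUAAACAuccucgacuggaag
miR-30e-5p: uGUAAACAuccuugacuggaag
miR-30c-5p: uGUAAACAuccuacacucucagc
miR-384-5p: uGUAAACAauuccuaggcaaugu
miR-30a-3p: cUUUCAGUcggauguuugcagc
miR-30e-3p: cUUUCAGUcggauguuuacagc
miR-30c-1-3p: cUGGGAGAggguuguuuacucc
miR-30c-2-3p: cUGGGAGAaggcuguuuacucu

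The seed of the 5p arms, GUAAACA, was found at bases 2 to 8 in 5 of the 1058 genes of the sequence table. These were the 4 listed Mir30 genes and Mir384, an X-linked gene outside the family by name. The 5p arms of the 4 Mir30 genes were identical over their first 12 bases, whereas that of Mir384 matched them over 8. miR-30a-5p and miR-30e-5p differed by 1 substitution, C13U, with positions counted from the 5′ end and the base of miR-30a first. Their 3p arms also differed by 1, G18A. Against miR-30a-5p, miR-30c-5p carried 5 substitutions in the 22 bases compared (C13A, G14C, G18C, G19U and A20C), and the 3p arms of both miR-30c genes had another seed than those of Mir30a and Mir30e.

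Mir30c-1 and Mir30c-2 have the same 5p arm, 23 bases long, so a read of that arm matches both genes. Their 3p arms differed at 3 of 22 bases (G9A, U12C and C22U, with Mir30c-1 first). The hairpins of this pair are shown with both mature arms in capitals, 5p before 3p, to mark where they can be told apart.
Mir30c-1: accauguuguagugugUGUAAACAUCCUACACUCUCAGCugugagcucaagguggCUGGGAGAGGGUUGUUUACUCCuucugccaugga
Mir30c-2: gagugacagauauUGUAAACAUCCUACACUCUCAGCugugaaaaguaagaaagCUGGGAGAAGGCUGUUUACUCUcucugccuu

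These hairpins shared a run of 28 bases that covers the whole 5p arm. All 6 stretches of 18 bases within the 5p arm occurred in both hairpins, and 0 of the 5 within the 3p arm did. In Mir30a and Mir30e, 1 stretch of 18 bases was shared between the hairpins, made of the first 17 bases of the 3p arm and the base before it. The authors' tables set reads with several mapping places apart, so the counts of Mir30c-1 and Mir30c-2 rest on reads that were assigned to 1 place. The entry for reads with several places held 2970119 reads in replicate 1 and 3575159 in replicate 2, which is 16.8 and 16.9 times the summed count of the Mir30 family. How many of them came from the miR-30c 5p arm was not tested.

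The 6 genes lie in pairs at 3 loci (GENCODE M21, GRCm38, 1-based). Mir30e (ENSMUSG00000065409.1) at chromosome 4, positions 120772606 to 120772697, and Mir30c-1 (ENSMUSG00000065490.1) at positions 120769534 to 120769622 were both intronic in Nfyc, on its strand. Nfyc encodes a subunit of the transcription factor NF-Y. Mir30a (ENSMUSG00000065405.2 in the tables) lay at chromosome 1, positions 23272269 to 23272339, inside no annotated gene. Mir30c-2 (ENSMUSG00000065567.1) lay 19361 bases further on the plus strand, at positions 23291701 to 23291784, in an exon of the noncoding gene Gm27028. Mir30d (ENSMUSG00000065437.1) at chromosome 15, positions 68341208 to 68341289, lay in an exon of the noncoding gene Gm20732. It also overlapped Gm37296 by 9 bases on the same strand. Mir30b (ENSMUSG00000065476.2) at positions 68337415 to 68337510, separated from Mir30d by 3697 bases, was inside no gene and overlapped the end of Gm26621 by 16 bases.

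Levels are given as CPM, the reads on a gene's own strand per 1000000 such reads on all miRNA genes of the library. Each library held 4719337 (replicate 1) or 5929220 (replicate 2) own-strand reads, 41.3% and 46.3% of all reads. Detection was set at 10 own-strand reads per library, and 395 genes reached it in both, among them all 6 Mir30 genes. Of the markers checked against the tissue label, all 6 of mesenchyme and cartilage, all 7 of epithelium and that of endothelium were detected. All 3 erythroid markers, the 2 leukocyte markers measured and the liver marker were detected too. Erythroid, leukocyte, neuron, striated muscle and liver markers each summed to 0.129% of counts or less. In at least 1 library, 3 of 5 striated muscle and 4 of 5 neuron genes were below 10 counts. These genes are numbered copies, and reads with several mapping places were set apart. Their low counts therefore do not show that such cells were scarce.

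The family held 176637 reads in replicate 1 and 211272 in replicate 2. That is 3.74% of gene counts (exact Clopper-Pearson interval 3.73 to 3.76) and 3.56% (interval 3.55 to 3.58), or 3.65% ± 0.127 (SD, n = 2). Intervals cover counting error only. The 6 genes are 1.52% of the detected genes. The family's reads fell into a high and a low tier with no gene between. Mir30e, Mir30a and Mir30d together held 99.5% ± 0.100 of them, and Mir30b, Mir30c-1 and Mir30c-2 the remaining 0.456%.

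Mir30e was the highest member, at 23473 CPM in replicate 1 against 23652 CPM in replicate 2, from 110777 and 140237 reads. It carried 64.5% ± 2.59 of the family's reads (SD, n = 2) and ranked 14 among the detected genes. Its level of 23562 ± 126 CPM lay between those of Mir100 (24528 and 23317 CPM) and Mir20a (15372 and 17206 CPM). Mir100 was above it in replicate 1 only, whereas Mir20a was below it in both libraries.

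Mir30a, whose 5p arm differs from that of Mir30e by a single base, stood at 7984 CPM in replicate 1 and 7176 CPM in replicate 2. It held 20.7% ± 0.842 of the family's reads and ranked 33 at 7580 ± 571 CPM. Its neighbours in rank were Mir125a (9486 and 6126 CPM) and Mir431 (7830 and 7123 CPM), and all 3 genes overlapped in level. Mir30d followed with 5828 and 4617 CPM, 14.3% ± 1.85 of the family's reads and rank 47. It lay between Mir369 (6436 and 4679 CPM) and Mir382 (5531 and 4909 CPM), again with overlapping values.

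Mir30b stood at 61.0 CPM in replicate 1 (288 reads, exact interval 54.2 to 68.5) and 82.1 CPM in replicate 2 (487 reads, interval 75.0 to 89.8). Mir30c-1 stood at 57.4 CPM (271 reads) and 81.3 CPM (482 reads). These genes ranked 229 and 233 with means of 71.6 ± 14.9 and 69.4 ± 16.9 CPM. The rank neighbours of Mir30b were Mir1247 (127 and 18.2 CPM) and Mir218-2 (66.7 and 76.2 CPM), and Mir3072 (71.6 and 65.8 CPM) stood below Mir30c-1. Mir30c-2 was the lowest member, with 25.6 CPM (121 reads, interval 21.3 to 30.6) and 24.1 CPM (143 reads, interval 20.3 to 28.4), at rank 272 between Mir669e (21.6 and 28.2 CPM) and Mir6240 (33.7 and 14.5 CPM). All 3 genes of the low tier were below the median of the detected genes, 122 CPM, and all 3 of the high tier were above the upper quartile, 1024 CPM. The place of the low tier depends on the count minimum: among genes with at least 1 count in both libraries, Mir30b, Mir30c-1 and Mir30c-2 stood at percentiles 63.8, 63.2 and 57.0, above the median.

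**Figure D1:**
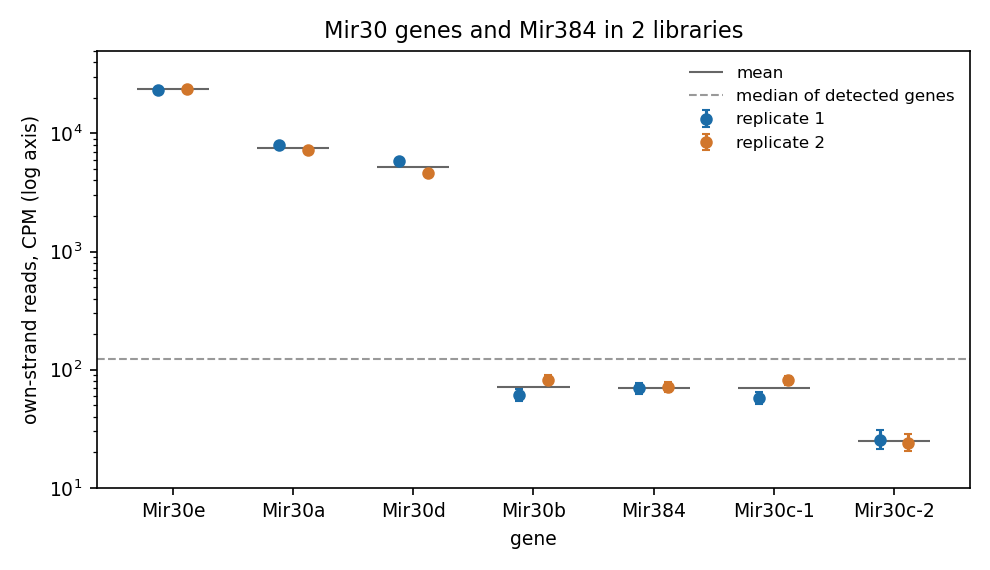
Level of each Mir30 gene and of Mir384 in CPM on a log axis, with 1 point per library, exact 95% intervals for counting error as bars (hidden by the points at high counts), and the mean as a line. Mir30e, Mir30a and Mir30d lie at 4617 CPM or above in both libraries, and the other genes at 82.1 CPM or below, under the dashed median of detected genes.

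The order of the members was the same in both libraries. Mir30e exceeded Mir30a by 2.94 times in replicate 1 and by 3.30 times in replicate 2. Mir30a exceeded Mir30d by 1.37 and 1.55 times. The step from Mir30d to Mir30b was the widest, 95.5 and 56.2 times. Mir30b and Mir30c-1 could not be separated, since their values overlapped between the libraries and differed by 2.22 CPM in the mean. Mir30c-1 exceeded Mir30c-2 by 2.24 and 3.37 times, with reads of several mapping places in neither count. In the other 4 steps of the order, the lower value of the higher gene exceeded the upper value of the lower gene. With 2 libraries no permutation test could reach significance, so these are descriptions.

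**Figure D2:**
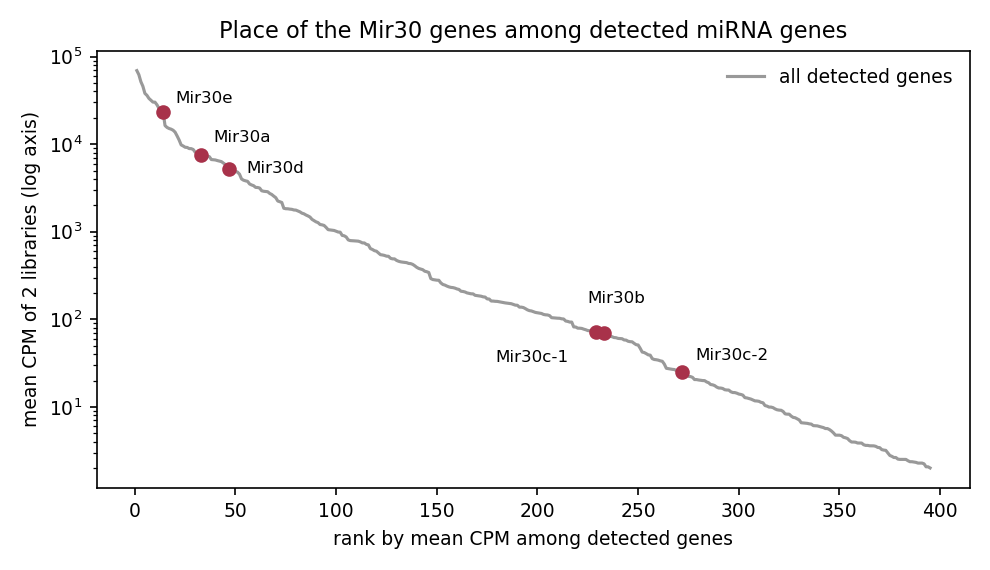
Mean CPM of all 395 detected genes on a log axis, in order of rank, with the 6 Mir30 genes marked. Mir30e, Mir30a and Mir30d stand at ranks 14, 33 and 47, whereas Mir30b, Mir30c-1 and Mir30c-2 stand at ranks 229, 233 and 272.

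Mir384, whose 5p arm matches those of the family over its first 8 bases, was detected at 69.5 and 71.7 CPM (328 and 425 reads). Its mean of 70.6 ± 1.54 CPM, at rank 232, fell between Mir30b and Mir30c-1, and its values lay inside the range of each.

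In each pair, 1 gene had far more reads than its neighbour. At the Nfyc locus the ratio of Mir30e to Mir30c-1 was 409 in replicate 1 (exact interval 363 to 462) and 291 in replicate 2 (interval 266 to 319). The genes are 2983 bases apart in the same host. On chromosome 1, Mir30a exceeded Mir30c-2 by 311 times (interval 261 to 375) and 298 times (interval 253 to 353). In both of these pairs the gene with few reads carries the 5p arm that occurs at another place. On chromosome 15, Mir30d exceeded Mir30b by 95.5 times (interval 85.0 to 108) and 56.2 times (interval 51.4 to 61.6).

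Unequal counts were common among neighbouring detected miRNA genes, and most other such pairs were less unequal than the Mir30 pairs. Genes below the detection minimum were skipped, so pairs in which a partner had few or no reads are not counted. Another 107 pairs of detected genes lay next to each other on 1 strand within 10 kb, and their median ratio was 7.67, or 2.94 on the log2 scale. The mean log2 ratio was 8.43 for Mir30e and Mir30c-1, 8.25 for Mir30a and Mir30c-2 and 6.20 for Mir30d and Mir30b. Of the 107 pairs, 4 were as wide as the Nfyc pair or wider, and 15 as wide as the chromosome 15 pair or wider. The chromosome 1 pair is farther apart than 10 kb. Within 50 kb, a window chosen after seeing the data, 5 of 120 other pairs were as wide as it or wider. Among the 107 pairs, 21 held a gene with a mature arm listed for another gene too. Their median ratio was 33.5, against 6.94 for the 86 pairs with no gene so listed. Of the 4 pairs as wide as the Nfyc pair or wider, 3 were among the 21 and 1 among the 86. As wide as the chromosome 15 pair or wider were 7 of the 21 pairs and 8 of the 86. Within 50 kb, the chromosome 1 pair was matched or exceeded by 4 of 27 pairs with such a gene and 1 of 93 without. Pairs in 1 cluster share genes, so these counts are descriptions with no test.

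**Figure D3:**
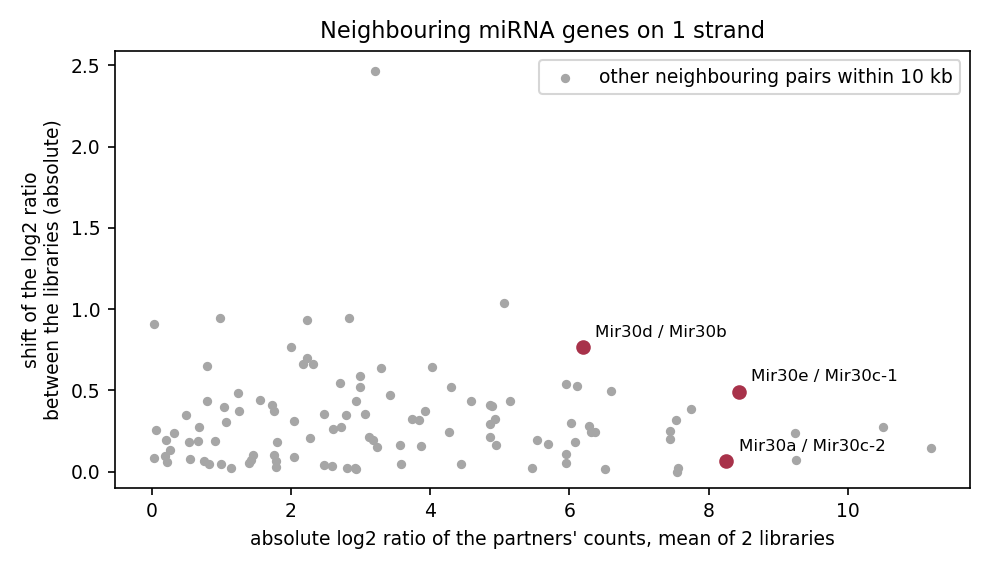
Absolute log2 ratio of the counts of neighbouring genes, as the mean of both libraries, against the absolute shift of that log2 ratio between the libraries. Each grey point is 1 of 107 pairs within 10 kb, and the Mir30 pairs, at 6.20, 8.25 and 8.43 on the horizontal axis, lie to the right of most of them.

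Genes with a mature arm listed for another gene also held small shares in other families with copies at several loci, without a test. In the Mir26 family, Mir26a-1 and Mir26a-2 share their 5p arm and held 0.198% ± 0.00825 of the family's reads (SD, n = 2), whereas Mir26b held 99.8%. In the let-7 family, the 4 detected genes with an arm listed for another gene held 1.34% ± 0.0478 of reads. Their levels reached 707 CPM and overlapped those of the 5 let-7 genes with no such arm, of which the lowest stood at 432 CPM. In the Mir29 family, known for repressing collagens and other matrix genes, Mir29b-1 and Mir29b-2 share their 3p arm. They were below the detection minimum in at least 1 library, with 5 and 12 reads of Mir29b-1 and 0 and 6 of Mir29b-2. Together they held 1.69% ± 1.02 of the family's reads (SD, n = 2). The 2 Mir29 genes with no arm listed for another gene were also low, with means of 55.4 and 60.2 CPM. Mir30c-1 and Mir30c-2 held 0.259% ± 0.0523 of the Mir30 reads, and Mir30b, which the sequence table does not list, was as low as Mir30c-1. By family, Mir30 with 3.65% of gene counts lay below let-7 (7.23% ± 0.393) and above Mir26 (2.56% ± 0.120) and Mir29 (0.0118% ± 0.0012), and the ranges of the libraries did not overlap. For let-7, 10 of the 12 genes listed were measured. All of these sums leave out reads with several mapping places. How many such reads came from each family, and whether the order would hold with them, was not tested.

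All 6 Mir30 genes lay within 1.41-fold between the libraries. By a two-sided exact binomial test over all 395 detected genes, with Benjamini-Hochberg adjustment at 0.05 and a limit of 2-fold, 0 of the 6 members were called, against 4.05% of all genes, a share so low that 0 of 6 says nothing particular of the members. Without the limit on size 4 of 6 differed beyond counting error, against 51.9% of all genes. This test compares the reads of these libraries, not conditions, and covers counting error alone. The median absolute log2 ratio was 0.25 over the members and 0.23 over all detected genes. The members' median log2 ratio was -0.04, and that of all genes -0.0026.

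Mir30d had the lowest adjusted p of the members, and its log2 ratio (replicate 2 over replicate 1) was -0.34 (interval for counting error -0.37 to -0.32, exact binomial adjusted p = 2.39e-167). Mir30a was also lower in replicate 2, at -0.16 (interval -0.18 to -0.14, exact binomial adjusted p = 1.26e-53). Mir30c-1 (0.50, interval 0.28 to 0.72, exact binomial adjusted p = 1.55e-05) and Mir30b (0.42, interval 0.21 to 0.64, exact binomial adjusted p = 0.00019) were higher in replicate 2. Mir30e, with a log2 ratio of 0.0058 (exact binomial adjusted p = 0.449), and Mir30c-2, with -0.09 (exact binomial adjusted p = 0.751), were not separated from 0. The share of detected genes with a ratio closer to 0 was 2.28% for Mir30e, 25.1% for Mir30c-2, 37.5% for Mir30a, 68.4% for Mir30d, 73.7% for Mir30b and 81.3% for Mir30c-1. When a coefficient of variation of 0.2 between pools was assumed in edgeR's exact test, 0 of the 6 genes passed, against 0.506% of all genes, with unadjusted p from 0.251 to 0.989.

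**Figure D4:**
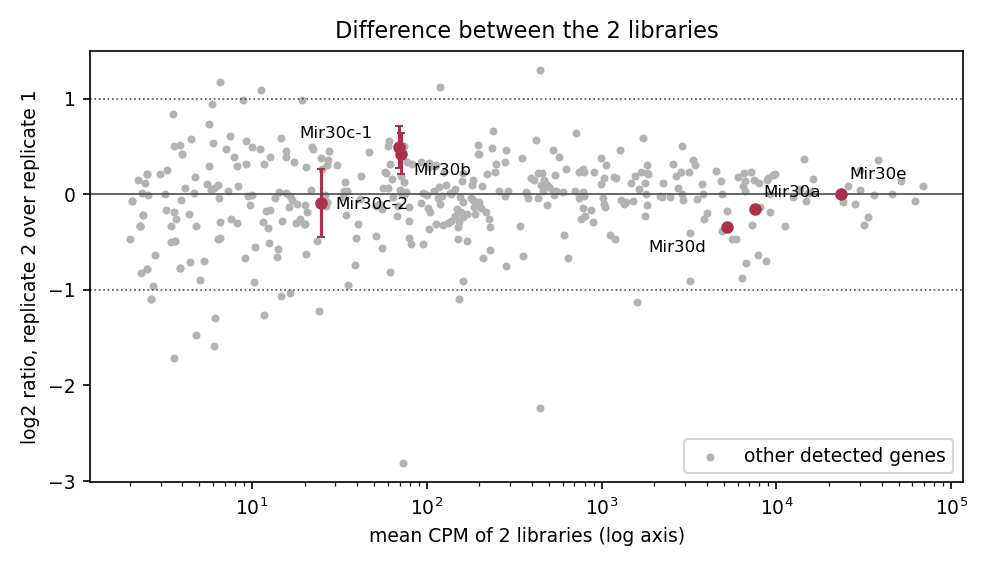
Log2 ratio of replicate 2 over replicate 1 for each detected gene against its mean CPM on a log axis, with exact 95% intervals for counting error at the Mir30 genes. All 6 members lie between the dotted lines at -1 and 1, Mir30c-1 and Mir30b above 0 and Mir30d and Mir30a below.

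Partners at 1 locus did not always move together. The ratio of Mir30d to Mir30b was 1.70 times lower in replicate 2, with intervals that did not overlap, since Mir30d was lower there and Mir30b higher. Of the 107 other pairs, 6 (5.61%) shifted as far or farther. The ratio of Mir30e to Mir30c-1 was 1.40 times lower in replicate 2, again with intervals apart, and 20 pairs (18.7%) shifted as far. The ratio of Mir30a to Mir30c-2 differed by 1.05 times with overlapping intervals. In both loci that shifted, the low member took a larger share of the pair in replicate 2, from 1.04% to 1.75% for Mir30b and from 0.244% to 0.343% for Mir30c-1. The share of reads with several mapping places was 26.0% in replicate 1 and 27.9% in replicate 2, and its part in these shifts was not tested.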

How the data were processed

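Small RNA was sequenced from 2 pools of embryonic facial prominence. For each library the authors deposited unnormalised counts of reads on each gene, aligned to mm10 with GENCODE M4 per the file headers of the library listings. Aligner, counter and trimming are not given in the sources used here. The tables give counts for both strands, for 1 strand and for the other, and the strand with 96.8% and 96.7% of gene reads was taken as the gene's own. Reads unmapped, mapped to several places or on no gene were kept out of library sizes. Each count joins both arms of a hairpin. GENCODE M21 named 1894 of 1973 identifiers, so positions may differ from those of M4 where a gene model changed, as the version of Mir30a did.

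CPM, exact Clopper-Pearson intervals (95%) and exact binomial tests were computed with Python 3.11.15 and scipy 1.17.1, with TMM factors of 0.998 and 1.002 from edgeR 4.0.16, DESeq2 1.42.0 size factors as an alternative, and Benjamini-Hochberg adjustment over all genes detected. edgeR's quasi-likelihood test has no residual degrees of freedom with 1 library against 1. Tested on simulated data with counting error alone, 95.0% of genes changed 3-fold among 395 were recovered. Where no read was found, up to 3 reads are allowed for (0.636 and 0.506 CPM). Depth was 4719337 and 5929220 own-strand reads. CPM were not divided by hairpin length, because a read is taken as 1 mature strand. How well CPM compare amounts of different miRNAs was not tested. The miRNA genes named by plan were the 6 members, Mir384, and the detected genes directly above and below each member in mean CPM. Mir26a-1, Mir26a-2, Mir26b, Mir29b-1, Mir29b-2 and Mir30f were named outside that plan. A mature arm was called shared when the RefSeq table listed the same sequence for another gene. That table is not complete. The members and lists were chosen with earlier results of these data known.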

Additional observations from a re-analysis of the deposited data

How the results depend on the processing

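With all reads as the denominator, levels were 10333 CPM for Mir30e, 3313 for Mir30a, 2275 for Mir30d, 31.6 for Mir30b, 30.7 for Mir30c-1 and 10.9 for Mir30c-2, and the family held 1.60%. That denominator also includes reads unmapped, mapped to several places or on no gene. In replicates 1 and 2, 26.0% and 27.9% of all reads mapped to several places, and 25.7% and 19.4% were unmapped. Mir30e also moved by more than its SD to 22793 CPM with both strands counted and to 24099 CPM with genes that share a mature arm out of the denominator. Of the 395 detected genes, 205 were called between the libraries with no limit on size and 2 by edgeR's exact test with the coefficient at 0.2, against 16. With a minimum of 100 counts 6 genes were called, but fewer genes were tested there. Of the Mir30 genes 4 were called with no limit on size. The log2 ratio of Mir30e, which was not called, changed sign to -0.031 with a minimum of 100 counts and to -0.0054 with both strands counted. The percentiles move with the number of genes kept. For Mir30b, Mir30c-1 and Mir30c-2 they were 42.1, 41.1 and 31.2 with a minimum of 10 counts, 63.8, 63.2 and 57.0 with 1 count and 17.4, 15.9 and 1.81 with 100. The difference between libraries has no value with either library left out. No paired analysis was possible because there was 1 group. With 121 to 487 reads, counting error limits the low tier most.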

Other observations

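Mir30f is annotated on the strand opposite to Mir30e, overlapping it on chromosome 4, and was not among the genes counted. Its mature strand in RefSeq begins with the 7 letters of the miR-30 seed, placed 1 base earlier than in the family, and a run of 19 of its bases matches the reverse complement of miR-30e-3p. Capitals mark bases 2 to 8.
miR-30f: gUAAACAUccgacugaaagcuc
The reads opposite to Mir30e numbered 1 in replicate 1 and 0 in replicate 2, where a count of 0 allows up to 0.506 CPM. The other 5 members had 0 reads on the opposite strand in both libraries.

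Genes with a mature arm listed for another gene too numbered 87 in the tables, and 47 of them (54.0%) were detected. Their median among detected genes was 74.4 CPM, with a lower quartile of 25.4 CPM. Mir30c-1, with a mean of 69.4 CPM, lay near that median, and Mir30c-2, with 24.9 CPM, below that quartile. Mir384, with no arm listed for another gene, lay as near the median at 70.6 CPM. Among 514 genes with both arms listed and neither found elsewhere, 251 (48.8%) were detected, with a median of 195 CPM.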
